A study of Homo sapiens with 6 samples.

Results

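The genes described here encode the subunits of the proteasome, its activators, its inhibitor and its assembly chaperones. They were taken by symbol (PSM, a letter from A to G, then a number) from a table of 36601 genes, of which 48 matched. Of these, 46 reached over 1 CPM (counts scaled to a common library size) in at least 2 of 6 libraries and were tested. PSMA8, an alpha subunit of the testis, had 4 counts in 1 shCtrl library and none elsewhere. PSMB11, the catalytic subunit of the thymus, had 3 counts in 1 shmiR155HG library, 2 in another and none elsewhere. Neither gene passed the filter.

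The libraries came from NK92, an established human natural killer (NK) cell line grown from a lymphoma, which carried a stable control shRNA (shCtrl, n = 3) or an shRNA against the long non-coding RNA miR155HG (shmiR155HG, n = 3). Every group was treated with IL-2 at 1000 U/mL plus IL-12 at 10 ng/mL for 12 h, so untreated cells were not part of the comparison. Poly(A) RNA was sequenced, and the table gives counts per gene, with 33454786 to 39157264 counts per library. The labels do not say whether the 3 libraries of a group were separate cultures or transductions, and each p-value measures only the spread between these samples. The number of shRNA sequences used is not given either.

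The targeted gene, MIR155HG, had a mean level of 1.77 ± 0.155 CPM under shCtrl and of 0.509 ± 0.215 CPM under shmiR155HG (± SD over 3 libraries), without overlap. Of 13 NK markers, 12 passed the filter, the exception being CD7 at 0 to 0.877 CPM, and their sum lay between 5240 and 5290 CPM in shCtrl and between 4790 and 4970 CPM in shmiR155HG cells. GZMB, the gene of granzyme B, carried this gap, at 1165 to 1244 CPM and 511 to 571 CPM. Without it, a choice made after its values were seen, the sum was higher in shmiR155HG cells, at 4280 to 4400 CPM against 4037 to 4122 CPM. By edgeR's test 4 of the 12 markers rose (KLRC1, IL2RB, EOMES and TBX21) and 3 fell (PRF1, GZMB and GZMA). CD3G, CD4, CD8A and MS4A1, which mark T and B cells, stayed at or under 0.129 CPM in every library. Of the lists for other cells, 2 of 7 T cell genes (TRAC and TRBC2), 1 of 5 B cell genes (PAX5) and 2 of 6 myeloid genes passed. The T cell sum was 252 to 269 CPM in shCtrl and 297 to 325 CPM in shmiR155HG cells, and the B cell sum 229 to 265 and 341 to 344 CPM. The myeloid sum was 13.0 to 21.4 and 11.2 to 13.8 CPM. None of the 4 erythroid, 4 epithelial and 4 fibroblast genes passed. The part of these differences in the results below was not tested.

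The proteasome degrades proteins tagged with ubiquitin. Its 20S core is a barrel of 2 outer alpha rings (PSMA) and 2 inner beta rings (PSMB), and the 19S cap recognises ubiquitin, unfolds the substrate and feeds it in through a ring of ATPases (PSMC) surrounded by non-ATPase subunits (PSMD). In the standard core, PSMB5, PSMB6 and PSMB7 cut the chain. Interferon-γ, which activated NK cells secrete, is known to induce the replacements PSMB8, PSMB9 and PSMB10 and the 11S activator PA28 (PSME1 and PSME2), and the resulting immunoproteasome makes peptides that suit MHC class I molecules. Lymphoid cells are known to hold it without added interferon.

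Promoter sequences show which letters these genes have in common. RefSeq windows (GRCh38.p14, from 250 bases before to 50 bases after each start site) were matched by symbol for 40 of the 46 genes, including all 5 of the immunoproteasome, and were searched on both strands for 3 short patterns. The first was GAAA, any 2 bases, then GAAA, a core of interferon-stimulated response elements. It was found in 17.5% of the 40 genes and in 4.38% of all genes in the promoter table. It lay in 4 of the 5 immunoproteasome genes (PSMB8, PSMB10, PSME1 and PSME2), and in 3 of the other 35 (PSMA4, PSMB4 and PSMG4). PSMG4, an assembly chaperone gene, had the highest fold change of the 46 genes below. It and 2 immunoproteasome genes carry the same 10 letters, which is why the following stretches are shown. These stretches are on the genes' own strand, with the pattern in capitals. They lie at chr16:67936852-67936881 (minus strand) for PSMB10, chr14:24146619-24146648 (minus strand) for PSME2 and chr6:3258904-3258933 (plus strand) for PSMG4, and those of PSME2 and PSMG4 fall wholly inside annotated exons.
PSMB10: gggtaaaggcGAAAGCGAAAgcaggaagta
PSME2: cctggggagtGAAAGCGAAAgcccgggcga
PSMG4: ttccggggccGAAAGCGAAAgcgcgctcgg

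The second pattern was TGACNNNGC, the core of antioxidant response elements, which are bound by NFE2L1 and NFE2L2 with small MAF proteins. It was found in 37.5% of the 40 genes against 16.1% of all genes in the promoter table and 19.7% of those tested here. Of the 15 genes with it, 3 belonged to the immunoproteasome (PSMB9, PSME1 and PSME2). This pattern was found in 2 of the 4 genes that fell below (PSMD12 and PSMA4), and not in PSMD11 or PSMB2. The stretches of 3 genes are shown, PSMD12 and PSMA4 because they fell below and PSMB9 as the immunoproteasome gene without the first pattern. They lie at chr17:67366723-67366752 (minus strand) for PSMD12, chr15:78540650-78540679 (plus strand, inside an annotated exon) for PSMA4 and chr6:32854034-32854063 (plus strand, with the pattern on the other strand) for PSMB9.
PSMD12: agacaaaaccTGACGCTGCaggctggagtg
PSMA4: gtgggcacgaTGACTCTGCaccgcctcctc
PSMB9: gggcggggctGCCTCGTCActtgtctcggg

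The third pattern, TTCNNNGAA, the core of gamma-activated sites, was found in 17.5% of the 40 genes against 9.38% of all. PSMB8 was its only immunoproteasome gene. These matches describe letters in a window and do not show that a factor binds there.

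Proteasome genes as a whole differed little between the groups. Together they took 6805 to 7065 normalized CPM in the shCtrl libraries and 6745 to 6873 CPM in the shmiR155HG libraries, and these ranges overlapped. With edgeR's quasi-likelihood test at an adjusted p under 0.05, 4 of the 46 genes fell in shmiR155HG cells (PSMD11, PSMD12, PSMA4 and PSMB2) and 2 rose (PSMF1 and PSMG4). The 6 genes are 13.0% of those tested, against 15.3% of all 12263 genes (8.02% lower and 7.26% higher) and 20.3% of the 7537 genes that averaged 20 CPM or more, a level that every one of the 46 genes reached (23.4 to 375 CPM). The share of proteasome genes with a call was therefore no higher than the background. In 11 of the 46 genes (23.9%) the groups did not overlap, against 30.8% of all genes tested. The study's own rule, as applied here, was an exact test with unadjusted p under 0.01 and a fold over 1.2. It called 1 proteasome gene, PSMG4, against 8.29% of all genes.

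The differences were small as well as few. The fitted log2 fold change was within 0.2 of 0 in 43 of the 46 genes, and for 32 of them the whole 95% interval was within that limit. Such a fold was also common among all genes, at 70.1% of those tested and 84.4% of those at 20 CPM or more. The fitted values were below 0 for 34 of the 46 genes (73.9%), against 49.8% of all genes tested and 53.0% of those at 20 CPM or more. Their median was −0.044, against 0.001 and −0.0089.

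Single control libraries weighed on this median, in both directions. shCtrl replicate 3 was the lowest of its group for 32 of the 46 genes. Left out, the median became −0.073, whereas it was −0.014 without shCtrl replicate 1 and −0.025 without shCtrl replicate 2. The direction was kept in each case, but its size depended on which control library was left out.

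**Figure D1:**
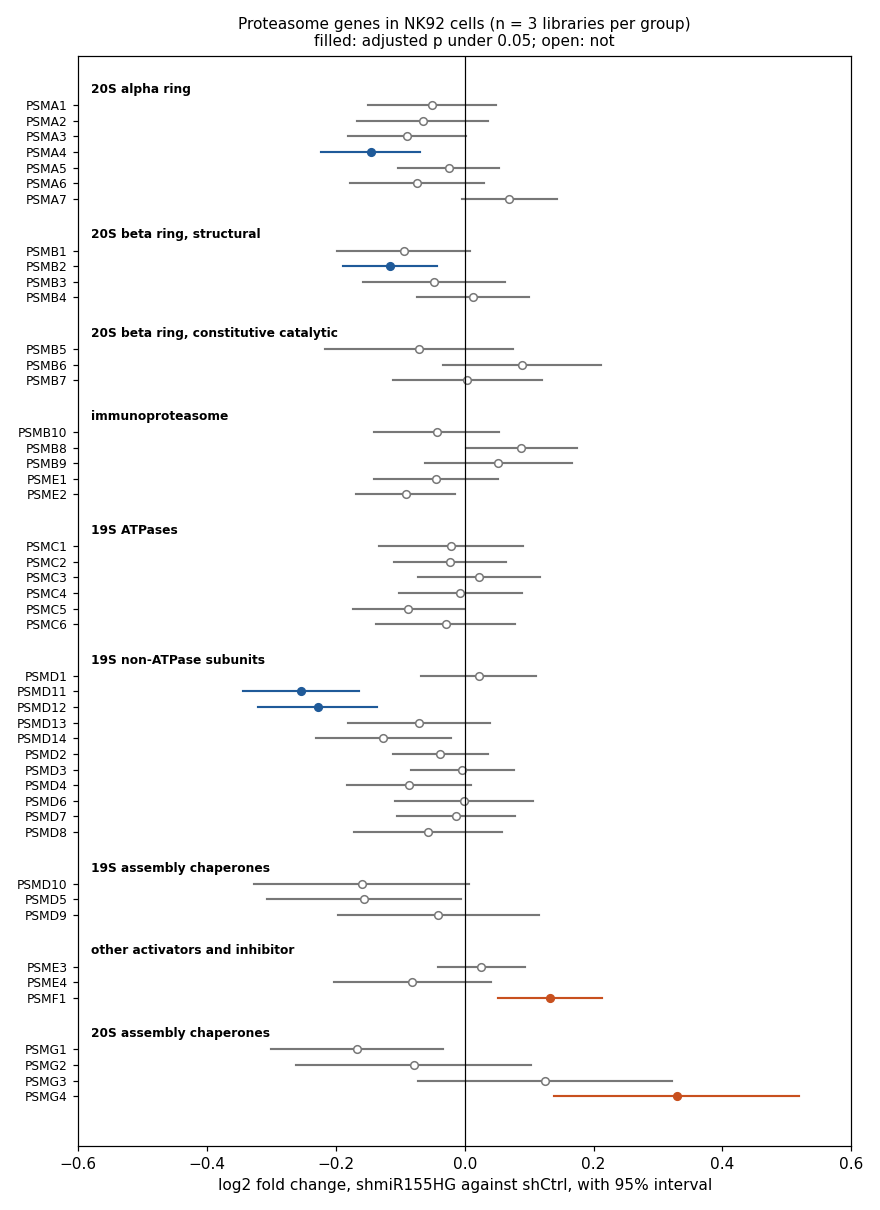
Log2 fold change of each of the 46 tested proteasome genes, shmiR155HG against shCtrl (n = 3 libraries each), grouped by role, with the 95% interval from edgeR's quasi-likelihood fit. Filled points mark the 6 genes with an adjusted p under 0.05, 4 below 0 and 2 above 0, and most open points sit slightly left of 0.

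The immunoproteasome genes did not pass the test in either direction. PSMB8, which replaces PSMB5, was measured at 189.6, 183.7 and 172.0 CPM in shCtrl replicates 1 to 3 and at 194.3, 196.6 and 188.5 CPM in the shmiR155HG libraries. The shmiR155HG values lay mostly above, and only shmiR155HG replicate 3 was under the top control value. The log2 fold change was 0.088 (95% interval 0.0015 to 0.17, adjusted p = 0.175 by edgeR's quasi-likelihood test).

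PSMB9, which replaces PSMB6, was at 121.1, 107.1 and 101.5 CPM in shCtrl and at 111.7, 117.9 and 112.2 CPM in shmiR155HG libraries. The shmiR155HG values all lay inside the control range. Its log2 fold change was 0.052 (−0.062 to 0.17, adjusted p = 0.607 by edgeR's test).

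PSMB10, which replaces PSMB7, was at 146.5, 138.6 and 132.6 CPM in shCtrl and at 134.5, 141.2 and 129.4 CPM in shmiR155HG libraries. The groups overlapped, with shmiR155HG replicate 3 lowest of the 6, and the log2 fold change was −0.044 (−0.14 to 0.054, adjusted p = 0.613 by edgeR's test).

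The 2 chains of PA28, the activator that opens the core's gate without ATP, were among the most abundant transcripts of the set. PSME1 was at 232.9, 232.2 and 202.4 CPM in shCtrl and at 211.0, 225.1 and 211.1 CPM in shmiR155HG libraries. shCtrl replicate 3 was lowest of the 6, and the shmiR155HG values lay inside the control range (log2 fold change −0.044, −0.14 to 0.052, adjusted p = 0.603 by edgeR's test). PSME2 was at 298.9, 303.5 and 288.1 CPM in shCtrl and at 287.3, 280.7 and 267.6 CPM in shmiR155HG libraries. It was the only immunoproteasome gene whose groups did not overlap, with gaps that were narrow, and its log2 fold change of −0.092 (−0.17 to −0.015) had an adjusted p of 0.103 by edgeR's test. Without shCtrl replicate 3 it passed, at −0.11 with an adjusted p of 0.0465 by the same test.

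Across the 5 genes the 95% intervals all lay within 0.2 of 0. Their fitted log2 fold changes had a median of −0.044, and the 41 other proteasome genes had one of −0.048. Their summed level was 897 to 989 CPM in shCtrl and 909 to 962 CPM in shmiR155HG libraries. The control range thus held all shmiR155HG values.

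The standard catalytic subunits did not pass either. PSMB5, the chymotrypsin-like subunit, was at 61.54, 65.85 and 57.87 CPM in shCtrl and at 56.39, 54.73 and 65.30 CPM in shmiR155HG libraries, with overlap (log2 fold change −0.071, −0.22 to 0.075, adjusted p = 0.577 by edgeR's test). PSMB6, the caspase-like subunit, was at 76.24, 77.86 and 71.80 CPM and at 80.45, 75.17 and 84.77 CPM. Only shmiR155HG replicate 2 fell inside the control range (0.089, −0.033 to 0.21, adjusted p = 0.361 by edgeR's test). PSMB7, the trypsin-like subunit, was at 111.9, 109.1 and 98.23 CPM and at 98.77, 112.0 and 109.5 CPM, and each group had 1 low library (0.0043, −0.11 to 0.12, adjusted p = 0.974 by edgeR's test).

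Each replacement subunit was compared with the one it displaces within each library. The ratio of the 3 inducible to the 3 standard subunits, from CPM, was 1.831, 1.698 and 1.782 in shCtrl and 1.870, 1.884 and 1.657 in shmiR155HG libraries (1.77 ± 0.0673 and 1.80 ± 0.127, SD, n = 3). shmiR155HG replicate 3 was lowest and the other two shmiR155HG libraries highest, so the groups overlapped. PSMB8 to PSMB5 was 2.95 ± 0.148 and 3.31 ± 0.373, PSMB9 to PSMB6 was 1.46 ± 0.114 and 1.43 ± 0.127, and PSMB10 to PSMB7 was 1.31 ± 0.0400 and 1.27 ± 0.0902. All 3 ratios overlapped between the groups, and PSME1 to PSME2 did so too (0.749 ± 0.0408 and 0.775 ± 0.0359).

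Divided by transcript length, the immunoproteasome ranked high in these cells. PSME2 was second of the 46 genes at 363 CPM per kilobase (mean of all libraries), behind the alpha subunit PSMA7 at 372. PSMB4 followed at 249, PSME1 at 227 and PSMB8 at 167 CPM per kilobase. PSMB10 (140 CPM per kilobase) exceeded PSMB7 (108), and PSMB8 exceeded PSMB5 (57.7) in every library. PSMB9 (110) exceeded PSMB6 (94.3) in every library by a ratio per kilobase of 1.07 to 1.29. The lowest of the set was PSME4, the chain of the PA200 activator, at 12.4 CPM per kilobase. These levels rest on the length of 1 annotated transcript per gene, which runs from 762 bases for PSMB3 to 8154 for PSMF1.

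**Figure D2:**
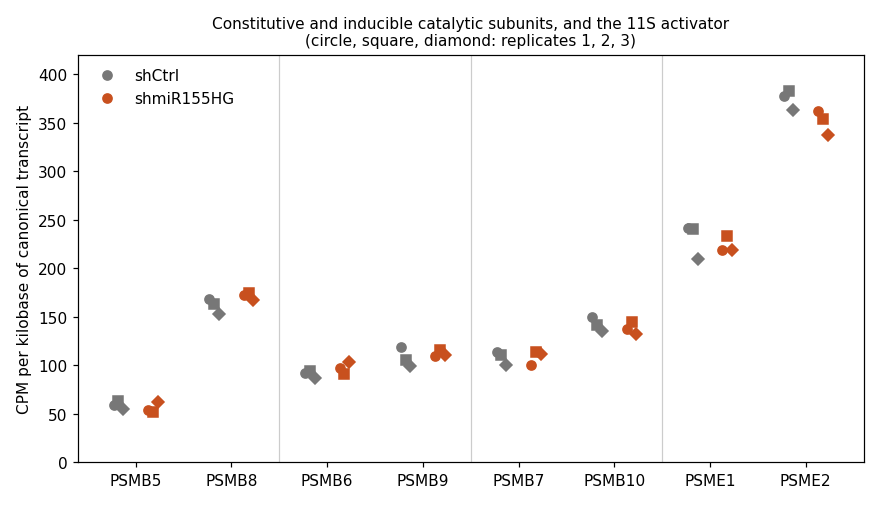
CPM per kilobase of transcript for the standard catalytic subunits PSMB5, PSMB6 and PSMB7, each beside its inducible replacement, and for the 2 PA28 chains, with 1 point per library. PSMB8 lies above PSMB5 in every library, shCtrl and shmiR155HG points mix for 7 of the 8 genes, and only PSME2 has all shmiR155HG points below all shCtrl points.

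The 19S cap held the 2 clearest falls. PSMD11 and PSMD12, also called Rpn6 and Rpn5, are neighbouring scaffold subunits of the cap's lid, the part that removes ubiquitin chains. PSMD11 (chr17:32444379-32483319, plus strand, 14 exons in hg38) was measured at 146.2, 145.3 and 143.8 CPM in shCtrl and at 120.2, 119.6 and 125.5 CPM in shmiR155HG libraries. Every shmiR155HG value lay well below every control value, and the level was 83.9% of control (95% interval 78.8 to 89.3), or −0.25 on the log2 scale (SE 0.0439, adjusted p = 0.000147 by edgeR's quasi-likelihood test).

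PSMD12 (chr17:67337916-67366605, minus strand, 11 exons) was measured at 146.4, 149.6 and 141.0 CPM in shCtrl and at 126.3, 119.5 and 127.2 CPM in shmiR155HG libraries. The groups were again apart, at 85.4% of control (80.1 to 91.0), or −0.23 on the log2 scale (SE 0.0452, adjusted p = 0.000675 by edgeR's test). These 2 genes kept their call under the 16 alternative settings that test each gene at the same threshold. They did not pass the study's rule, whose fold limit neither reached.

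Of the other 9 non-ATPase subunits none passed. PSMD14 (Rpn11), the deubiquitinase of the lid, had a log2 fold change of −0.13 (−0.23 to −0.022, adjusted p = 0.0986 by edgeR's test), which passed without shCtrl replicate 3 (−0.16, adjusted p = 0.0343). The remaining 8 lay between −0.086 (PSMD4, a ubiquitin receptor) and 0.022 (PSMD1, the large scaffold). Among these were PSMD2, PSMD3, PSMD6, PSMD7, PSMD8 and PSMD13. The sum over all 11 subunits was 1864 to 1901 CPM in shCtrl and 1755 to 1853 CPM in shmiR155HG libraries, and did not overlap. The sum without PSMD11 and PSMD12, a choice made after their values were seen, overlapped. It was 1579 to 1606 CPM in shCtrl and 1516 to 1607 CPM in shmiR155HG libraries. Since 10 of the 11 subunits had fitted values below 0, this overlap does not place the fall in these 2 genes alone.

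The 6 ATPases, PSMC1 to PSMC6, form the ring that unfolds the substrate, and none passed. Their log2 fold changes ran from −0.087 (PSMC5) to 0.022 (PSMC3), and each 95% interval was within 0.2 of 0. Their sums overlapped, at 848 to 881 CPM in shCtrl and 822 to 868 CPM in shmiR155HG libraries. PSMD5, PSMD9 and PSMD10 are chaperones that assemble the ATPase ring and are not part of the finished cap. None of the 3 passed, with log2 fold changes of −0.16 for PSMD10 (−0.33 to 0.0070) and PSMD5 (−0.31 to −0.0052) and −0.041 for PSMD9. Their summed level did not overlap, at 125 to 135 CPM in shCtrl and 117 to 124 CPM in shmiR155HG libraries.

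In the alpha ring, which gates the core, 1 of 7 subunits fell. PSMA4 (chr15:78540405-78552417, plus strand, 9 exons) was measured at 230.0, 225.1 and 224.1 CPM in shCtrl and at 208.2, 205.1 and 200.7 CPM in shmiR155HG libraries. The spread inside each group was smaller than the gap between them, and the level was 90.4% of control (85.7 to 95.4), or −0.15 on the log2 scale (SE 0.0375, adjusted p = 0.00758 by edgeR's test). Without shmiR155HG replicate 3 the adjusted p was 0.0525 at −0.13. PSMA1, PSMA2, PSMA3, PSMA5 and PSMA6 had values from −0.089 (PSMA3) to −0.025 (PSMA5) that did not pass. PSMA7, the most abundant of the ring, was at 0.069 (−0.0041 to 0.14, adjusted p = 0.215 by edgeR's test), with shmiR155HG values of 362.4 to 373.2 CPM just above the 334.3 to 361.6 CPM of the controls.

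Of the 4 structural beta subunits, which complete the inner ring without cutting, PSMB2 fell. PSMB2 (chr1:35599541-35641526, minus strand, 6 exons) was measured at 316.7, 331.1 and 322.6 CPM in shCtrl and at 305.3, 293.6 and 296.7 CPM in shmiR155HG libraries. The groups did not overlap, and the level was 92.3% of control (87.8 to 97.0), or −0.12 on the log2 scale (SE 0.0353, adjusted p = 0.0244 by edgeR's test). This call was lost without shCtrl replicate 2 (adjusted p = 0.129), shmiR155HG replicate 2 (0.124) or shmiR155HG replicate 3 (0.0948). PSMB1, PSMB3 and PSMB4 were at −0.095, −0.048 and 0.013 on the log2 scale and did not pass.

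The 2 genes that rose encode no part of the particle itself. PSMF1 (PI31), which binds the core and was first described as an inhibitor, lies at chr20:1113240-1189415 (plus strand, 7 exons). It was measured at 179.3, 184.3 and 188.6 CPM in shCtrl and at 197.8, 201.6 and 205.7 CPM in shmiR155HG libraries. All shmiR155HG values were above the controls, at 110% of control (103.6 to 115.9), or 0.13 on the log2 scale (SE 0.0393, adjusted p = 0.0209 by edgeR's test). The call was lost without shCtrl replicate 1 (adjusted p = 0.0917), shCtrl replicate 2 (0.0611), shmiR155HG replicate 2 (0.0683) or shmiR155HG replicate 3 (0.0932). The other activators, PSME3 (PA28γ) at 0.026 and PSME4 at −0.081, did not pass. PSME3 was nearly level in the controls, at 368.3 to 368.5 CPM, and at 371.4 to 378.7 CPM in shmiR155HG libraries.

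PSMG4, 1 of 4 chaperones that build the alpha ring, had the highest fold change of the 46 genes and 1 of the lowest levels. It lies at chr6:3231403-3303373 (plus strand, 3 exons). It was measured at 26.60, 27.72 and 26.23 CPM in shCtrl and at 36.93, 28.69 and 35.58 CPM in shmiR155HG libraries. shmiR155HG replicate 2 stood just above the controls and the other two well above them. The level was 126% of control (110.1 to 143.3), or 0.33 on the log2 scale (SE 0.0925, adjusted p = 0.0145 by edgeR's test), and the call was lost without shmiR155HG replicate 1 (adjusted p = 0.110) or shmiR155HG replicate 3 (0.0818). PSMG1, its partner chaperone PSMG2 and PSMG3 had log2 fold changes of −0.17 (−0.30 to −0.034, adjusted p = 0.0830), −0.079 and 0.12 and did not pass. PSMG1 passed without shCtrl replicate 3 (−0.21, adjusted p = 0.0376 by edgeR's test).

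**Figure D3:**
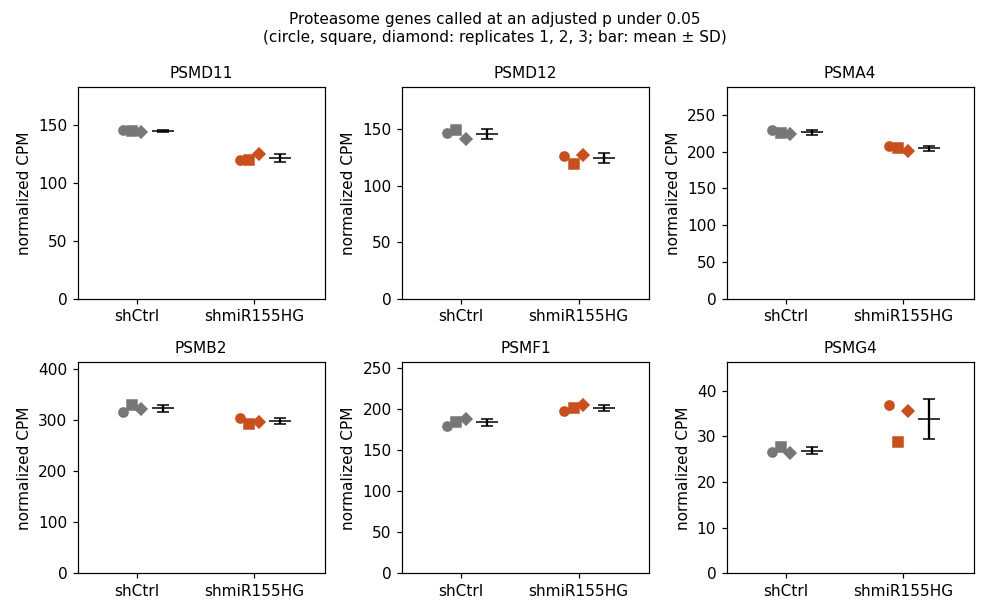
Normalized CPM of the 6 proteasome genes with an adjusted p under 0.05, with 1 point per library and the mean ± SD (n = 3) beside each group, and each vertical axis starting at 0. The groups are apart in all 6 panels, by more for PSMD11 and PSMD12 than for PSMA4, PSMB2 and PSMF1, and 1 shmiR155HG library of PSMG4 sits close to the controls.

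Several of these genes share ground with others. PSMB8 and PSMB9 lie on opposite strands of chromosome 6. Over all their annotated transcripts they have 139 bases of exon in common, and TAP1 lies within the annotated span of PSMB9. PSMB8-AS1, on the strand of PSMB9, covers 602 exonic bases of PSMB8. PSMB8-AS1 was itself at 15.0 to 21.7 CPM, with a log2 fold change of −0.019 (adjusted p = 0.946 by edgeR's test). Since the strand used in counting is not given, reads of PSMB8, PSMB9 and PSMB8-AS1 over shared bases cannot be told apart. PSMG4 has 1388 exonic bases in common with SLC22A23 on the other strand, over all transcripts. SLC22A23 was at 6.66 to 8.01 CPM (log2 fold change 0.20, adjusted p = 0.475 by edgeR's test), with all shmiR155HG values above the controls. Reads of PSMG4 and SLC22A23 over these bases cannot be told apart either. PSMF1 has 680 exonic bases in common with TMEM74B, which stayed at or under 0.237 CPM. PSMC1 has 4667 exonic bases in common with NRDE2 on the other strand, over all transcripts. NRDE2 was at 49.8 to 67.9 CPM (log2 fold change 0.10, adjusted p = 0.516 by edgeR's test). PSMC1 also has the most named pseudogenes in GENCODE (13), while PSME2 has 6, PSMA6 has 4 and PSMD12 has 1. None of these has an entry in the count table, so reads could be shared with them.

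Base composition moved with the outcome for some members. The log2 fold changes of all genes varied with the GC content of the transcript, and a fit corrected for it left 8 proteasome genes past the threshold, 6 lower and 2 higher. These are 17.4% of the 46 genes, with 13.0% lower, against 14.9% of all genes in the same fit, with 9.19% lower. PSMD11 (−0.26), PSMD12 (−0.18), PSMF1 (0.12) and PSMG4 (0.27) remained. PSMA4 (−0.10, adjusted p = 0.0592 by edgeR's test) and PSMB2 (−0.097, adjusted p = 0.0605), with 41.9% and 44.1% GC, did not. In their place PSMB10 (−0.14, adjusted p = 0.0410), PSME2 (−0.13, 0.0195), PSMC5 (−0.14, 0.0234) and PSMD4 (−0.14, 0.0438) passed, 2 of them immunoproteasome genes. The median over the 46 genes was then −0.050, and over all genes −0.017.

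**Figure D4:**
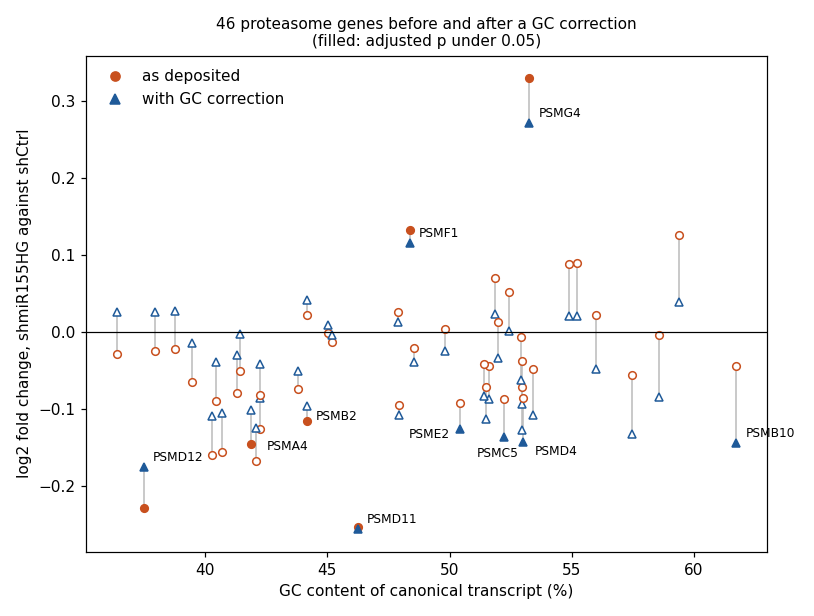
Log2 fold change of the 46 proteasome genes, shmiR155HG against shCtrl, against the GC content of the transcript in percent, as deposited (circles) and after a GC correction (triangles, joined by lines), with filled symbols for an adjusted p under 0.05. The correction moved GC-rich genes down and GC-poor genes up, so that PSMB10, PSME2, PSMC5 and PSMD4 became filled and PSMA4 and PSMB2 open.

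Genes that work with the proteasome but lie outside the symbol rule were called at about the background rate. In 3 lists of partners, regulators and ubiquitin genes, 5 of 39 passed (12.8%), against 15.3% of all genes. Of 15 partners (13.3% called), ZFAND2A, a stress-induced cap-binding protein, rose (9.14 ± 0.648 to 12.5 ± 1.0 CPM, log2 fold change 0.45, adjusted p = 0.0263 by edgeR's test) and UCHL5, a deubiquitinase of the cap, fell (190 ± 6.38 to 172 ± 3.40 CPM, −0.15, adjusted p = 0.0137). Both calls depended on single libraries. That of ZFAND2A was lost without shCtrl replicate 1 (adjusted p = 0.102) or 2 (0.0605) or without shmiR155HG replicate 1 (0.0997) or 3 (0.0856), and that of UCHL5 without shCtrl replicate 1 (0.0919) or shmiR155HG replicate 1 (0.0769) or 2 (0.0530).

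Of 9 regulators of proteasome genes, 2 rose (22.2%, against 15.3% of all genes and 20.3% of those at 20 CPM or more). MAFF, a small MAF protein, was at 5.963, 8.060 and 8.186 CPM in shCtrl and at 11.49, 13.24 and 10.05 CPM in shmiR155HG libraries, without overlap (log2 fold change 0.65, adjusted p = 0.00573 by edgeR's test). Without shmiR155HG replicate 2 its adjusted p was 0.0608. DDI2, the protease that activates NFE2L1, went from 149 ± 2.15 to 164 ± 8.40 CPM (0.14, adjusted p = 0.0333 by edgeR's test), a call lost without shCtrl replicate 1 (0.102) or 2 (0.0698) or shmiR155HG replicate 1 (0.193) or 2 (0.127). NFE2L1 itself, named after its value was seen, was at −0.093 (−0.17 to −0.016) with an adjusted p of 0.0975 by edgeR's test. Of 15 genes for ubiquitin supply and delivery, 1 passed (6.67%), and this gene, UBA6, for an enzyme that activates ubiquitin, fell (81.6 ± 1.47 to 71.5 ± 3.98 CPM, −0.19, adjusted p = 0.0267 by edgeR's test). Its call was lost without shCtrl replicate 1 (0.0873) or 2 (0.0809) or shmiR155HG replicate 1 (0.0618) or 3 (0.153), and the calls of UCHL5 (0.139) and UBA6 (0.128) were lost with the GC correction.

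The class I pathway that takes up the proteasome's peptides had more calls. Of 16 genes, 7 rose and 4 fell, which is 68.8%, against 15.3% of all genes and 20.3% of those at 20 CPM or more. These genes had a higher median level, at 395 CPM against 132.5 CPM for the proteasome genes. Their median standard error was lower, at 0.0337 against 0.048, so smaller folds could pass. The log2 fold change was within 0.2 of 0 in 12 of the 16, against 84.4% of genes at 20 CPM or more. HLA-E rose from 312 ± 1.46 to 371 ± 7.11 CPM (0.25, adjusted p = 4.91e-06), HLA-B from 1634 ± 26.1 to 1920 ± 36.2 CPM (0.23, adjusted p = 8.88e-07) and HLA-C from 1100 ± 20.9 to 1289 ± 30.7 CPM (0.23, adjusted p = 2.80e-06), each by edgeR's test and without overlap. The reads of these closely similar HLA genes can be shared between them. TAP1, a chain of the transporter that carries peptides into the endoplasmic reticulum, is the neighbour of PSMB9 and rose from 325 ± 3.47 to 354 ± 1.05 CPM (0.13, adjusted p = 0.00985 by edgeR's test), while PSMB9 had a log2 fold change of 0.052. IRF1 and NLRC5 also rose, by 0.11 to 0.19 on the log2 scale, and ERAP1, ERAP2 and CALR fell, with values from −0.17 to −0.13. Some of these calls were lost with 1 library left out. That was so for CALR without shmiR155HG replicate 3 (adjusted p = 0.115 by edgeR's test). It was also so for NLRC5 without shCtrl replicate 1 (0.124) or 2 (0.179) or shmiR155HG replicate 1 (0.108) or 2 (0.166), and for IRF1 without any library but shCtrl replicate 3 (0.0533 to 0.104). With the GC correction TAP1, IRF1, NLRC5 and ERAP2 no longer passed (adjusted p of 0.0747 to 0.357 by edgeR's test), and HLA-B, HLA-C, HLA-E, ERAP1 and CALR did.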

How the data were processed

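The deposited values are gene counts, as whole numbers, of 6 libraries (3 shCtrl and 3 shmiR155HG). The authors made them by alignment to hg38 (HISAT2), quantification of known transcripts (StringTie) and extraction of the counts (prepDE.py3). The annotation release, the strand used in counting and the read length set in prepDE.py3 are not given in the sources used here. Another read length would scale all counts by a constant, for which halved counts were run as an alternative. For shmiR155HG replicates 2 and 3 the treatment field names the gene with a different number, so groups follow the sample titles. No library was left out of the primary comparison.

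The tools were edgeR 4.0.16, DESeq2 1.42.0 and limma 3.58.1 in R 4.3.3. Genes over 1 CPM in at least 2 libraries (12263) were fitted with TMM scaling (factors 0.997 to 1.003) and edgeR's robust quasi-likelihood test, by group only, and p-values were adjusted over all of them (Benjamini-Hochberg, threshold 0.05). CPM values are TMM-normalized, SD is within a group, and SE and 95% intervals are of the log2 fold change. The biological coefficient of variation was 8.71%. Replicate libraries differed by more than counting noise (chi-square per gene 7.35 to 10.9), so each was counted once. The script was tested on simulated counts.

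The members and gene lists were chosen with earlier results of these data known. Every member is named or counted by role. Values per library are given for members past the threshold with a log2 fold change of at least 0.2 in size, for the immunoproteasome and for the standard catalytic subunits, and those of the other called members were added. From each other list, genes past the threshold were named, apart from some that are counted but not reported here. Positions come from GENCODE's gene records (hg38), which span all transcripts of a gene. Exons, length and GC content come from the canonical transcript alone. This release may not be the one that was used for counting. Alternatives were DESeq2 size factors, total counts, no filter, edgeR's own filter, DESeq2, limma-voom, the exact test, the study's thresholds, halved counts, a replicate block, a GC correction and each library left out in turn.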

Additional observations from a re-analysis of the deposited data

How the results depend on the processing

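Under DESeq2 size factors, total counts, no filter, edgeR's own filter, DESeq2's Wald test, limma-voom, the exact test, halved counts and the replicate block, the same 6 proteasome genes passed. Libraries with the same replicate number were no more alike across the groups than others (correlation of deviations −0.013, 0.012 and 0.020 for the same number, and −0.035 to 0.025 for other numbers). The labels do not say whether such libraries shared a culture or preparation. Blocking on the replicate numbers gave 829 genes higher and 909 lower and changed the call of no proteasome gene. NLRC5 lost its call with this block (adjusted p = 0.0526 by edgeR's test). With edgeR's own filter NLRC5 (0.0541) and DDI2 (0.0526) lost theirs by the same test, as did IRF1 without a filter (0.0507). The study's thresholds, as applied here, called 551 genes higher and 466 lower, with 1 proteasome gene higher and 0 lower. The paper reports more genes in each direction, so its list was not reproduced, and the reason was not tested. The ratio of inducible to standard catalytic subunits differed by 0.027 on the log2 scale between the groups (−0.0056 to 0.084 with each library left out), and that of PSMB8 to PSMB5 alone by 0.17. The GC correction called 2 immunoproteasome genes and turned the direction of 7 genes without a call: PSMA5 (0.026), PSMB4 (−0.034), PSMB7 (−0.025), PSMC2 (0.027), PSMC3 (−0.048), PSMC6 (0.026) and PSMD6 (0.0095). PSMB7 also turned without a filter (−0.00080), and PSMD6 with DESeq2 size factors or DESeq2 (0.00050) and with total counts (0.0011).

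With each library left out in turn, 580 to 891 genes were higher and 674 to 917 lower, 0 to 2 proteasome genes were higher and 2 to 7 lower, and 0 to 1 immunoproteasome genes passed. Fewer samples entered these fits, and other causes were not tested. Log2 fold changes near 0 changed sign in such fits for PSMA1 (−0.089 to 0.0030), PSMB3 (−0.11 to 0.0012), PSMB4 (−0.029 to 0.052), PSMB7 (−0.048 to 0.058), PSMB9 (−0.00040 to 0.13), PSMC1 (−0.070 to 0.062), PSMC3 (−0.032 to 0.055), PSMC4 (−0.027 to 0.019), PSMD1 (−0.022 to 0.069), PSMD3 (−0.034 to 0.030), PSMD6 (−0.045 to 0.025), PSMD7 (−0.037 to 0.020), PSMD8 (−0.087 to 0.0027) and PSMD9 (−0.089 to 0.022). Of the 46 genes, 29 kept their direction in all 16 settings compared gene by gene (without the study's thresholds). The standard error of the log2 fold change was 0.0329 to 0.0962 across the set. Counting error and spread between replicates were not separated.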
